A study of Rattus norvegicus with 15 samples.

Results

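The miR-99, miR-100 and miR-125 families were described in rat hearts across 3 groups. The members were chosen by name: every probe set that the array files call rno-miR-99a, rno-miR-99b, rno-miR-100, rno-miR-125a-5p or rno-miR-125b-5p (rno- for rat, left out below), without the star and 3p forms. They came to 5 of the 350 rat miRNAs on the array, 3 of the miR-99 and miR-100 family and 2 of the miR-125 family, measured through 10 of its 938 probes. Hearts of male Sprague-Dawley rats gave the RNA for 15 one-colour arrays, 5 a group; the labels give no age. Control rats (Veh in the plots) received vehicle. DM rats received streptozotocin, a toxin of the insulin-producing cells of the pancreas, as 60 mg/kg into the tail vein, and their plasma glucose was above 300 mg/dL. GF rats, for glucose fluctuation, were diabetic in the same way and in addition starved for 24 h and injected with insulin (0.5 IU/kg, intraperitoneal). Both diabetic groups combine streptozotocin, lost insulin and high glucose, and starvation, insulin and swings of glucose come together in GF, so none of these can be told apart here.

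A microRNA (miRNA) is a short RNA that guides a silencing complex to messenger RNAs, mainly through its seed, the stretch near its 5′ end that pairs with the target. The miR-99, miR-100 and miR-125 families are old neighbours: in mammals a gene of each sits with a let-7 gene in each of several clusters. The miR-99 and miR-100 family is known to repress Mtor and Igf1r, a kinase and a receptor of the insulin and insulin-like growth factor pathway, and the miR-125 family is known for targets such as Lin28, an inhibitor of let-7 maturation, and Bak1, a cell death gene. Both families are abundant in muscle and heart.

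Mature sequences are shown because they define the families: members of a family share a seed and differ further along. For 4 of the 5 members a mature sequence was matched by name (as the -5p form) in RefSeq's table for the GRCr8 assembly; miR-99a was not matched. The sequences run 5′ to 3′, and the capitals mark the seed, bases 2 to 8.
miR-100: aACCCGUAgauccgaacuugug
miR-99b: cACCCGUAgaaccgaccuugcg
miR-125b-5p: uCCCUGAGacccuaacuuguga
miR-125a-5p: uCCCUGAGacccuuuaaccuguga
The 4 sequences held 2 seeds. The seed ACCCGUA was found in 2 of the 693 mature names in the table (0.289%), miR-100 and miR-99b. From miR-100 to miR-99b, with positions counted from 1 at the 5′ end, the substitutions were A1C, U11A, A16C and U21C. The seed CCCUGAG was found in 3 names (0.433%), the pair of miR-125 members and miR-351. miR-125b-5p and miR-125a-5p shared their first 13 bases and their last 5. The array files give no probe sequences, and how far a probe also binds a near-identical family member was not tested.

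The genes lay in 3 clusters of a miR-99 or miR-100 gene, a let-7 gene and a miR-125 gene, all on the plus strand of GRCr8. On chromosome 1, Mir99b (67350064 to 67350133), Mirlet7e (67350229 to 67350321) and Mir125a (67350675 to 67350759) spanned 696 bases. On chromosome 8, Mir100 (50798295 to 50798374), Mirlet7a-2 (50805203 to 50805298) and Mir125b1 (50850036 to 50850122) spanned 51828 bases, within the non-coding host gene Mir100hgl. On chromosome 11, Mir99a (29687392 to 29687472), Mirlet7c1 (29688112 to 29688205) and Mir125b2 (29732572 to 29732659) spanned 45268 bases. Mature miR-125b-5p can come from the gene on chromosome 8 or the one on chromosome 11, and the array does not separate them. miR-99a, miR-100 and miR-125b-5p are therefore called the chromosome 8 and 11 members below, and miR-99b and miR-125a-5p the chromosome 1 members.

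In 5 cases 2 arrays of 1 group on different slides differed by less than the measurement error that the scanner software states (reduced chi-square from 0.243 to 0.630 over 156 miRNAs). Such arrays were averaged and counted once. They were control replicates 1 and 3; in DM, replicates 2 and 4 and also 3 and 5; in GF, replicates 1 and 5 and also 2 and 4. This left 10 distinct samples, 4 control, 3 DM and 3 GF, on which the tests and the SD rest. Whether each array held RNA of its own animal is not stated in the labels; the p-values therefore cover the spread of these samples, some of which may be technical. Control replicate 5 stood apart from its group: it was closer to DM replicate 1 (reduced chi-square 1.15) than to any control array (3.25 to 4.09), and values without it are given below. Between 166 and 190 miRNAs were detected per array. The array brightness, taken as the 75th percentile of signal, had a mean of 2205 ± 261 (SD, n = 4) for control, 2027 ± 256 (SD, n = 3) for DM and 2780 ± 529 (SD, n = 3) for GF samples, and GF exceeded control by 575 (two-sided exact permutation p = 0.229, adjusted p = 0.343 over 3 comparisons) and DM by 753 (exact permutation p = 0.2, adjusted p = 0.343). Of 6 cardiac and striated muscle miRNAs 5 were well above background on every array and miR-206 lay at the floor, the lowest measurable signal; miR-122 of liver and miR-375 of islets lay at the floor throughout. With so few arrays, their number limits the precision.

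All 5 members, and both probes of each, were well above background on all 15 arrays, so all 5 were tested among 165 miRNAs. Signals are on the log2 scale after each array was scaled to its own 75th percentile, and a difference of 1 is a factor of 2. Levels of different miRNAs are not compared, since each probe has its own brightness per molecule. The standard errors of the members, from 0.068 to 0.10, lay below the median of 0.11 over all tested miRNAs in GF minus control.

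miR-100, from the chromosome 8 cluster, had the widest spread of group means among the members. In control samples its log2 signal was 10.43 in replicates 1 and 3, 10.35 in replicate 2, 10.53 in replicate 4 and 10.44 in replicate 5. In DM samples it was 10.25 in replicate 1, 10.35 in replicates 2 and 4, and 10.18 in replicates 3 and 5. In GF samples it was 10.30 in replicates 1 and 5, 9.89 in replicates 2 and 4, and 10.03 in replicate 6. Every GF sample and every DM sample lay below every control sample, the highest DM sample by less than the last digit shown, while GF and DM overlapped; in GF 19.4% and in DM 4.85% of all tested miRNAs had every sample below every control. The means were 10.44 ± 0.07 (SD, n = 4) for control, 10.26 ± 0.09 (SD, n = 3) for DM and 10.08 ± 0.21 (SD, n = 3) in GF. In RNA of bulk heart tissue, fewer cells of a type and less of a miRNA per cell cannot be told apart.

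miR-99a, from the chromosome 11 cluster, spread less. Its control samples read 11.85 in replicates 1 and 3, 11.86 in replicate 2, 11.87 in replicate 4 and 12.01 in replicate 5. Its DM samples read 11.89 in replicate 1, 11.88 in replicates 2 and 4, and 11.74 in replicates 3 and 5. Its GF samples read 11.86 in replicates 1 and 5, 11.59 in replicates 2 and 4, and 11.76 in replicate 6. Control replicate 5 stood above the other 3 control samples, which lay within a narrow band, and GF replicates 1 and 5 lay inside that band. The means were 11.90 ± 0.08 (SD, n = 4) for control, 11.84 ± 0.08 (SD, n = 3) for DM and 11.74 ± 0.14 (SD, n = 3) for GF samples.

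miR-125b-5p, which has a gene in each of those clusters, had a similar order of samples. Its control samples read 13.54 in replicates 1 and 3, 13.54 in replicate 2, 13.55 in replicate 4 and 13.67 in replicate 5. Its DM samples read 13.55 in replicate 1, 13.61 in replicates 2 and 4, and 13.33 in replicates 3 and 5. Its GF samples read 13.50 in replicates 1 and 5, 13.18 in replicates 2 and 4, and 13.30 in replicate 6. Every GF sample lay below every control sample. DM replicates 3 and 5 lay below the controls, and the other DM samples lay within the control range. The means were 13.57 ± 0.07 (SD, n = 4) for control, 13.50 ± 0.15 (SD, n = 3) for DM and 13.32 ± 0.16 (SD, n = 3) in GF.

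The chromosome 1 members showed another order of samples. miR-99b read 7.24 in control replicates 1 and 3, 7.36 in replicate 2, 7.36 in replicate 4 and 7.58 in replicate 5. It read 7.44, 7.51 and 7.47 in DM replicate 1, DM replicates 2 and 4, and DM replicates 3 and 5, and 7.48, 7.52 and 7.30 in GF replicates 1 and 5, GF replicates 2 and 4, and GF replicate 6. All DM and GF samples lay within the range of the controls. Its means were 7.39 ± 0.14 (SD, n = 4), 7.48 ± 0.04 (SD, n = 3) and 7.43 ± 0.12 (SD, n = 3) in control, DM and GF samples.

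miR-125a-5p, its neighbour, read 9.87 in control replicates 1 and 3, 9.91 in replicate 2, 9.90 in replicate 4 and 9.98 in replicate 5. It read 9.93, 9.98 and 10.01 in the DM samples and 9.89, 9.996 and 9.82 in the GF samples, in the same order as above. The groups overlapped throughout. Its means of 9.92 ± 0.05 (SD, n = 4) for control, 9.97 ± 0.04 (SD, n = 3) for DM and 9.90 ± 0.09 (SD, n = 3) in GF samples differed by less than the SD of the GF group.

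**Figure D1:**
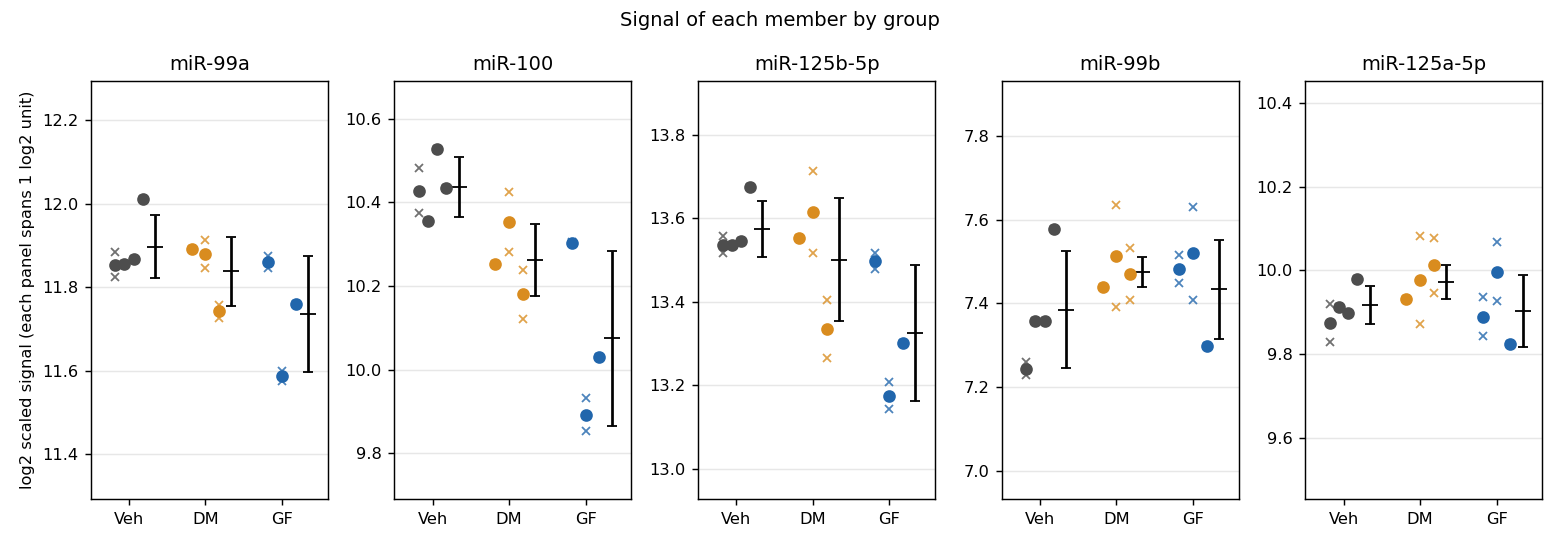
Log2 scaled signal (vertical axis, 1 log2 unit per panel) of the 5 members in control (Veh), DM and GF hearts. Filled circles are the 10 distinct samples, crosses the 2 arrays behind an averaged sample, and the bar to the right of each group its mean ± SD; miR-100 and miR-125b-5p show all GF circles below all control circles, and miR-99b and miR-125a-5p show overlapping groups.

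GF hearts were set against control hearts to find differences under diabetes with glucose fluctuation. None of the 5 members passed the threshold (limma, adjusted p under 0.05 over 165 miRNAs; 2 of 5 at an unadjusted p under 0.05), where 7.88% of all tested miRNAs passed and 30.9% had an unadjusted p under 0.05. miR-100 came nearest. Its log2 difference was -0.36 (SE 0.10, 95% interval -0.59 to -0.13, limma adjusted p = 0.0551), which is a 1.28-fold lower signal. That of miR-125b-5p was -0.25 (SE 0.10, interval -0.47 to -0.03, limma adjusted p = 0.126) and that of miR-99a was -0.16 (SE 0.09, interval -0.35 to 0.03, adjusted p = 0.227). The chromosome 1 members lay near 0, at 0.05 for miR-99b (SE 0.09, interval -0.16 to 0.26, limma adjusted p = 0.789) and -0.01 for miR-125a-5p (SE 0.07, interval -0.17 to 0.14, adjusted p = 0.933). The median over the 5 members was -0.16, against -0.05 over all tested miRNAs. All GF samples lay below all control samples for 2 of the 5 members, miR-100 and miR-125b-5p, where the same was true of 19.4% of all tested miRNAs.

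The call of miR-100 depended on the processing. It passed with the mean of its probes (log2 -0.43, limma adjusted p = 0.0257; 12.7% of all tested passed), with the scanner software's total gene signal (-0.39, 0.0331; 9.7% of all tested passed), among miRNAs above background on all arrays (-0.36, 0.0475) and with the 15 arrays as separate samples (-0.35, 0.00949), a setting that counts the close arrays as independent and calls 36.4% of all tested miRNAs. Control and GF arrays of the same number deviated together, and with the replicate number as a block on these 15 arrays miR-100 passed as well (-0.35, limma adjusted p = 0.0408; 30.3% of all tested passed). It did not pass with quantile normalization (-0.29, adjusted p = 0.0696), with the normexp background correction (-0.34, 0.0568), scaled to the array's hur control spots (-0.32, 0.178) or to the 75th percentile over all probes (-0.23, 0.25), with no scaling (-0.04, 0.916) or with the authors' deposited log2 values (-0.07, 0.821). Without the sample of GF replicates 1 and 5 the difference was -0.48 (limma adjusted p = 0.0447), without GF replicates 2 and 4 it was -0.27 (0.207), and without control replicate 5 it was -0.36 (0.0623). Leaving out DM replicates 3 and 5, which enter only the shared estimate of the spread, gave an adjusted p of 0.0471. The number of calls among all tested miRNAs also changed with the sample left out, as given below. A pass of miR-100 there is thus not particular to it.

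The 2 probes of each member were also tested on their own, among 300 probes of which 8% passed. The other probe of miR-100, which is dimmer, gave -0.50 (SE 0.11, limma adjusted p = 0.0218), and the probe used above gave -0.36 (adjusted p = 0.0516). For miR-125b-5p the other probe gave -0.38 (SE 0.11, limma adjusted p = 0.0582), and for miR-99a it gave -0.21 (SE 0.08, adjusted p = 0.0958). For miR-99b and miR-125a-5p the other probes gave -0.04 (SE 0.11) and -0.09 (SE 0.08). In each of the 5 members the other probe gave a lower value than the one used above. The median coefficient of variation over the 10 spots of a probe ran from 4.36% to 8.68% over the 10 probes.

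The differences moved with the scaling. With no scaling the median of all tested miRNAs in GF minus control went from -0.05 to 0.25, and then miR-99a (0.16), miR-125b-5p (0.07), miR-99b (0.37) and miR-125a-5p (0.31) lay above 0 and miR-100 at -0.04. Relative to the median of all tested miRNAs, over 9 scalings and summaries, miR-100 lay at -0.38 to -0.24, miR-125b-5p at -0.29 to -0.13 and miR-99a at -0.13 to -0.05. miR-99b lay at 0.06 to 0.12 and miR-125a-5p at 0 to 0.10 on the same measure, and miR-99b lay above miR-125a-5p except with quantile normalization (0.06 against 0.10) and normexp (0.06 against 0.09). In these settings the chromosome 8 and 11 members lay below the median 9 of 9 times, and the chromosome 1 members 0 of 9 times. The 9 settings are not independent, since a scaling factor shared by all miRNAs of an array largely cancels in this measure. Total gene signal and the authors' deposited values, which come from the same signal, both gave -0.316 for miR-100.

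**Figure D2:**
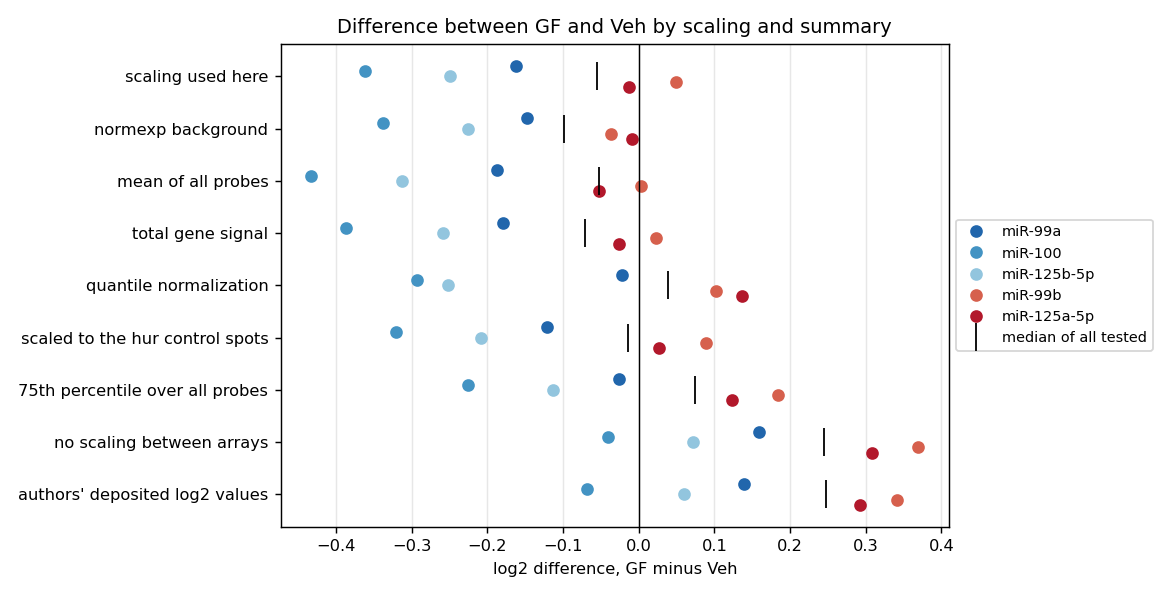
Log2 difference of GF minus control (horizontal axis) for each member (circles) and the median of all tested miRNAs (black bars) under 9 scalings and summaries of the signal (rows). The whole field shifts to the right with no scaling and in the authors' deposited values, where the median is 0.25, and miR-100 stays leftmost in each row.

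Slides were examined as batches, since each of the 2 slides held arrays of all 3 groups. The arrays of each close pair lay on different slides, so the 2 slides share those samples and their values are not independent. Within slide 1 the difference of miR-100 in GF minus control was -0.30 (SE 0.15, limma adjusted p = 0.275) and within slide 2 it was -0.38 (SE 0.13, adjusted p = 0.122). With slide as a block over the 15 arrays, which counts the close pairs as separate samples, it was -0.35 (limma adjusted p = 0.0129; 34.5% of all tested passed). For miR-125b-5p the slides gave -0.19 and -0.27, and for miR-99a -0.13 and -0.17. For miR-99b the slides gave 0.26 (SE 0.12) and -0.0029 (SE 0.10), and for miR-125a-5p 0.09 and -0.04. No member passed within a slide, and 0 of all tested miRNAs did on either slide in limma (40 and 50 unadjusted). Without control replicate 5, which was the highest control sample for 4 of the 5 members, miR-125b-5p gave -0.22 (limma adjusted p = 0.181), miR-99a -0.12 (0.365), miR-99b 0.11 (0.375) and miR-125a-5p 0.01 (0.932).

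DM hearts were set against control hearts to find differences under sustained high glucose. None of the 5 members passed in limma (0 of 5 also at an unadjusted p under 0.05); 0% of all tested miRNAs passed and 8.48% had an unadjusted p under 0.05. The log2 differences were -0.17 for miR-100 (SE 0.10, interval -0.40 to 0.05), -0.06 for miR-99a (SE 0.09, interval -0.25 to 0.13) and -0.07 for miR-125b-5p (SE 0.10, interval -0.30 to 0.15). They were 0.09 for miR-99b (SE 0.09, interval -0.12 to 0.30) and 0.06 for miR-125a-5p (SE 0.07, interval -0.10 to 0.21). The adjusted p of the members ran from 0.555 to 0.795 (limma). The median over the members was -0.06, against 0.03 over all tested miRNAs. All DM samples lay below all control samples for miR-100 alone among the members, as for 4.85% of all tested miRNAs. This separation was close to a tie, with DM replicates 2 and 4 at 10.3531 and control replicate 2 at 10.3546. Among single arrays the groups overlapped: DM replicate 2 read 10.43, above control replicates 2 (10.35) and 3 (10.37). Relative to the median of all tested, miR-100 lay at -0.28 to -0.20 over the 9 scalings and summaries, and miR-125b-5p at -0.21 to -0.09. Without the sample of DM replicates 3 and 5 miR-125b-5p stood at 0.01, miR-99a at -0.01 and miR-100 at -0.13. Without control replicate 5 the DM differences were -0.18 for miR-100, -0.02 for miR-99a, -0.04 for miR-125b-5p, 0.15 for miR-99b and 0.08 for miR-125a-5p (limma adjusted p from 0.258 to 0.925).

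GF hearts were set against DM hearts for the question of the series, how glucose fluctuation differs from sustained high glucose. None of the 5 members passed in limma (0 of 5 unadjusted), where 0% of all tested miRNAs passed and 10.9% had an unadjusted p under 0.05. The differences were -0.19 for miR-100 (SE 0.11, interval -0.43 to 0.06), -0.18 for miR-125b-5p (SE 0.11, interval -0.41 to 0.06) and -0.10 for miR-99a (SE 0.09, interval -0.31 to 0.10). They were -0.04 for miR-99b (SE 0.10) and -0.07 for miR-125a-5p (SE 0.07). All 5 lay below 0 here and above 0 without scaling; the median over all tested was -0.08 here and 0.35 without scaling. No member had all GF samples below all DM samples, which was so for 12.7% of all tested miRNAs. The comparisons share samples: GF minus control and DM minus control share the controls, and each shares a diabetic group with GF minus DM.

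**Figure D3:**
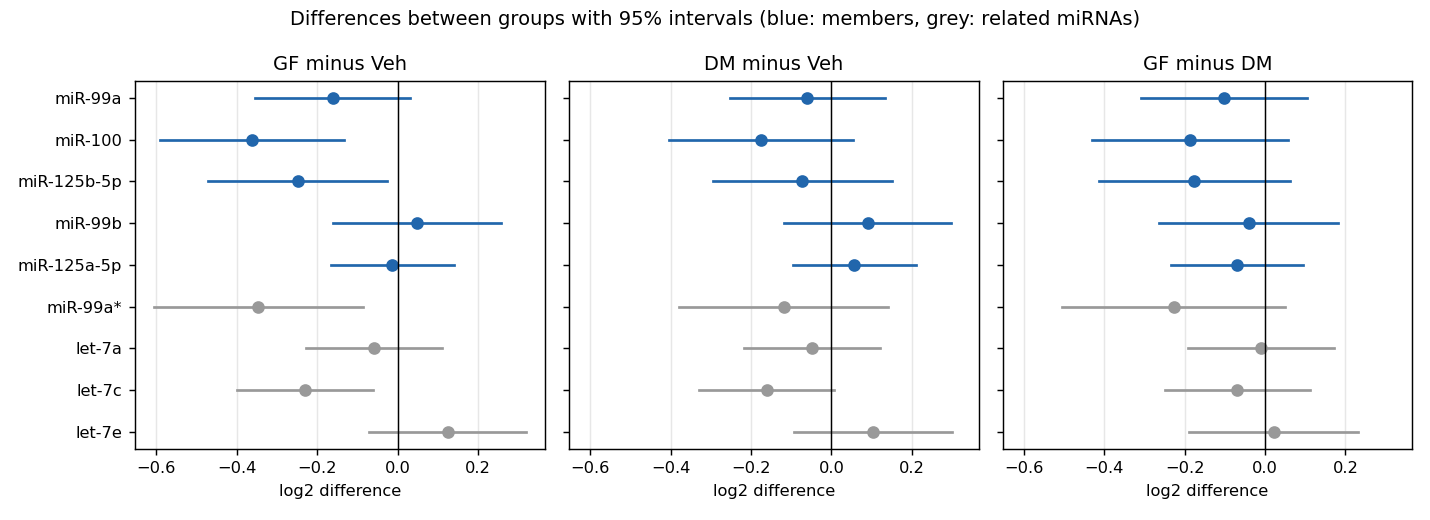
Log2 differences (horizontal axis) with 95% intervals for the 5 members (blue) and 4 related miRNAs (grey) in the 3 comparisons, one per panel. In GF minus Veh the intervals of miR-100, miR-125b-5p, miR-99a* and let-7c lie below 0 before adjustment, and in the other panels every interval includes 0.

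Levels of members were next set against each other within a sample, where the scaling between arrays cancels. The size of such a ratio depends on the probes, so the ratios are compared between groups alone. Of 18 tests, 6 ratios in 3 comparisons, none passed (lowest adjusted p = 0.294, two-sided exact permutation tests). None could pass, since the smallest p of this test is 0.0571 for 3 against 4 samples and 0.1 for 3 against 3. The log2 ratio of miR-125a-5p over miR-125b-5p, the members that share the miR-125 seed, was -3.66, -3.62, -3.65 and -3.69 in control samples. It was -3.61 in GF replicates 1 and 5, -3.18 in GF replicates 2 and 4 and -3.48 in GF replicate 6, all above the controls, with a mean difference of 0.24 (exact permutation p = 0.0571). In DM samples it was -3.62, -3.64 and -3.32, with DM replicates 3 and 5 standing high. The ratio of miR-99a over miR-125b-5p also did not overlap between GF (-1.64, -1.59 and -1.54) and control samples (-1.68, -1.68, -1.68 and -1.66), with a difference of 0.09 (exact permutation p = 0.0571). For miR-125a-5p over miR-125b-5p the nearest GF and control samples were at -3.609 and -3.624. How many ratios of other miRNAs separate these groups was not counted. The separation is therefore not shown to be particular to these members. The ratio of miR-99b over miR-99a differed by 0.21 and that of miR-99a over miR-100 by 0.20 between GF and control samples (exact permutation p = 0.114 for each), with overlapping groups. The ratio of miR-99b over miR-125a-5p, the neighbours on chromosome 1, differed by 0.06 (exact permutation p = 0.343). Within slides, the difference of miR-125a-5p over miR-125b-5p between GF and control arrays was 0.27 on slide 1 and 0.23 on slide 2. These values are not independent, since the close pairs span the slides.

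**Figure D4:**
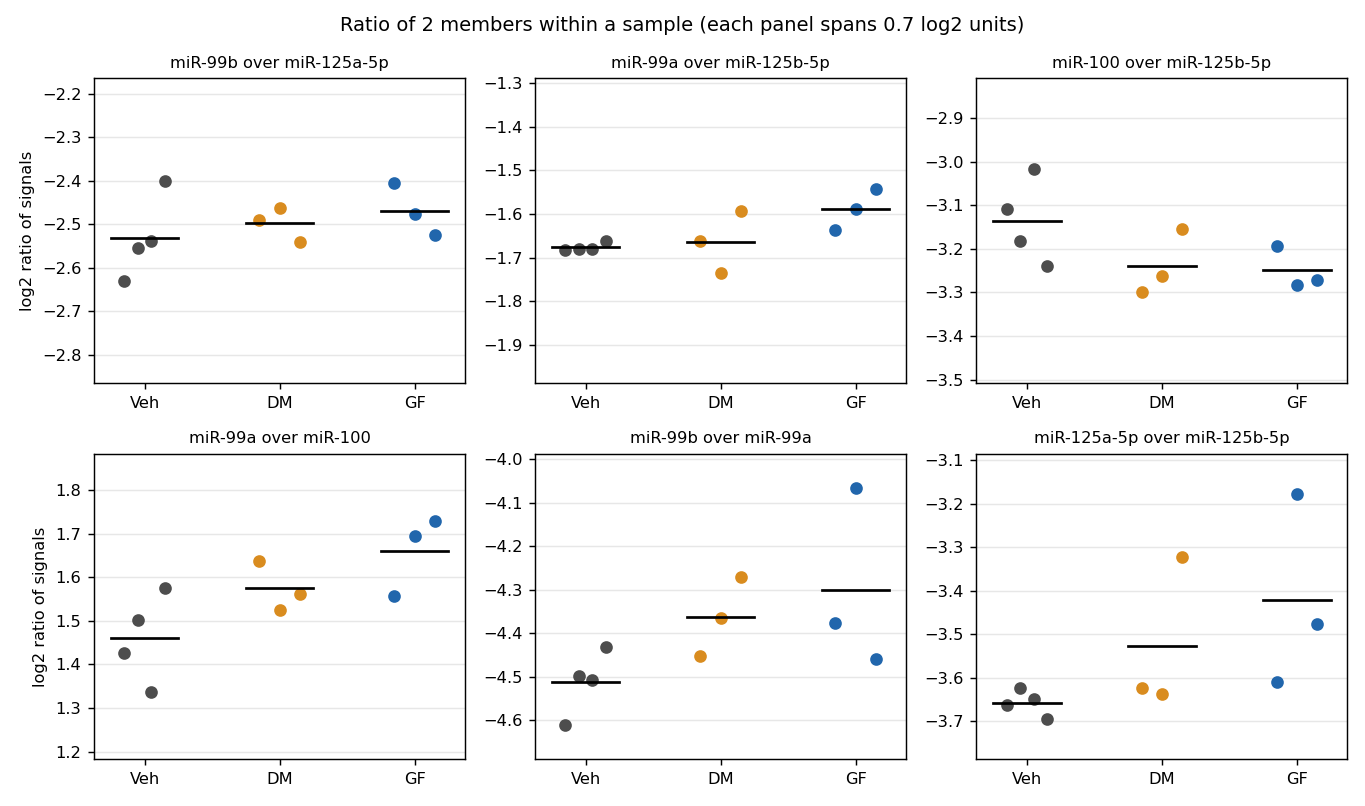
Log2 ratio of 2 members within a sample (vertical axis, 0.7 log2 units per panel) in control (Veh), DM and GF hearts. Points are distinct samples and bars group means. For miR-125a-5p over miR-125b-5p and for miR-99a over miR-125b-5p all 3 GF points lie above all 4 control points. How often ratios of other miRNAs do so was not counted.

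Members were compared in how they varied over the 10 distinct samples. miR-99a and miR-125b-5p varied together: Pearson's r was 0.96 (permutation p = 0.00019, adjusted p = 0.00304 over 16 relations) and Spearman's rho 0.93 (permutation p = 0.00035, adjusted p = 0.0056). Without the 2 samples farthest from the median r was 0.96, within slides it was 0.95 and 0.96, and with group means removed it was 0.94. Here and below the values within slides are not independent, since each close pair has an array on each slide. Of the 13530 pairs of tested miRNAs 0.14% had an r as high, and the median r over all pairs was 0.17. miR-100 had r of 0.90 with miR-125b-5p (permutation p = 0.00081, adjusted p = 0.00648; rho 0.73, permutation p = 0.0204, adjusted p = 0.0767) and of 0.84 with miR-99a (permutation p = 0.00237, adjusted p = 0.00948; rho 0.62, permutation p = 0.0603, adjusted p = 0.161). Without the farthest samples these were 0.63 and 0.71, so part of their size rests on those samples. An r as high was reached by 0.865% and 2.48% of all pairs.

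The chromosome 1 members also varied together. miR-99b and miR-125a-5p had an r of 0.79 (permutation p = 0.00738, adjusted p = 0.0236) and a rho of 0.73 (permutation p = 0.0205, adjusted p = 0.0767), and 4.35% of all pairs had an r as high. Their r was 0.64 without the 2 farthest samples, 0.83 and 0.75 within slides, and 0.82 with group means removed. Across the clusters, the 6 correlations between a chromosome 1 member and a chromosome 8 or 11 member ran from -0.14 to 0.08 (permutation p from 0.694 to 0.898, adjusted p from 0.879 to 0.898) and in rho from -0.21 to 0.27 (permutation p from 0.448 to 0.973, adjusted p from 0.652 to 0.973). Each r over the 10 samples lay below the median of all pairs. The slides differed in sign: the 6 values of r ran from -0.56 to -0.26 within slide 1 and from 0.01 to 0.38 within slide 2. They ran from -0.37 to 0.29 with group means removed and from -0.47 to 0.22 without the 2 farthest samples. In the samples, GF replicates 2 and 4 were the lowest of all 10 for miR-99a, miR-100 and miR-125b-5p and stood among the higher samples for miR-99b and miR-125a-5p. DM replicates 3 and 5 lay below the mean for the former 3 members and above it for the latter pair. GF replicate 6 lay below the mean for all 5 members, and control replicate 5 above it for all 5.

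**Figure D5:**
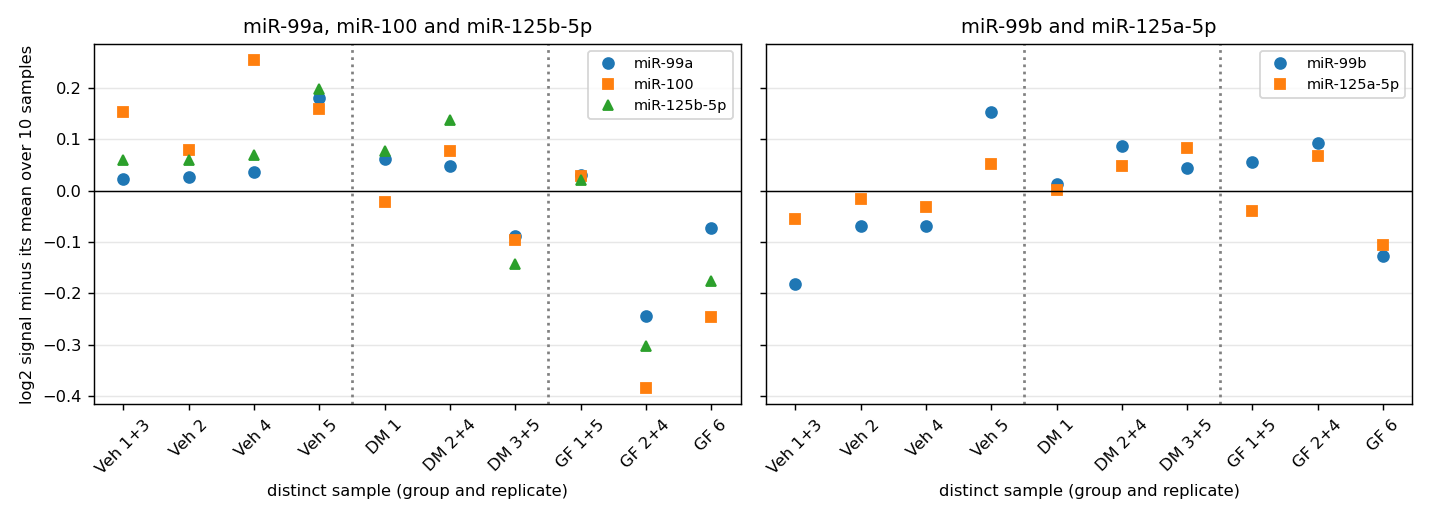
Log2 signal of each member minus its mean over the 10 distinct samples (vertical axis), by sample (horizontal axis; dotted lines separate control, DM and GF). The left panel holds the chromosome 8 and 11 members, which dip together in DM 3+5, GF 2+4 and GF 6; the right panel holds the chromosome 1 members, which dip in Veh 1+3 and GF 6.

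The miRNAs most like each member were found by the root mean square difference of mean-centred log2 signals over the 10 samples, among 164 others. For miR-99a the nearest was miR-125b-5p (0.054 log2 units; the median over all was 0.18), followed by miR-24 and miR-15b. For miR-125b-5p the nearest were miR-99a, miR-152 (0.062) and miR-24. For miR-100 they were miR-331 (0.076), miR-125b-5p (0.084) and miR-133b (0.093). For miR-99b they were miR-425 (0.052), miR-7a (0.062) and miR-125a-5p (0.066), and for miR-125a-5p they were miR-103 (0.046), miR-425 (0.052) and miR-18a (0.063), with miR-99b in place 4. However, miR-125a-5p varied by only 0.058 around its own mean, less than its distance from miR-18a. Its r with miR-103, miR-425 and miR-18a was 0.67, 0.69 and 0.37. For this member, nearness in part marks miRNAs that vary little and not a shared pattern. A chromosome 1 member ranked from 34 to 84 in likeness to a chromosome 8 or 11 member.

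Related miRNAs were listed by position and sequence: the let-7 members of the 3 clusters, the opposite arms, and miR-351, which has the miR-125 seed. Of 9 such miRNAs 4 were tested and 0 of the 4 passed in any comparison (limma; at an unadjusted p under 0.05, 2 in GF minus control and 0 in the others; 7.88% of all tested passed in GF minus control and 0% in the others). miR-99a*, the opposite arm of the miR-99a hairpin, had a log2 signal of 6.58 ± 0.07 (SD, n = 4) for control, 6.46 ± 0.14 (SD, n = 3) for DM and 6.23 ± 0.24 (SD, n = 3) in GF samples. Its difference in GF minus control was -0.35 (SE 0.12, limma adjusted p = 0.087), and all GF samples lay below all controls. Over the 10 samples its r with miR-99a was 0.88 (permutation p = 0.00147, adjusted p = 0.00784; rho 0.72, permutation p = 0.024, adjusted p = 0.0767), and 0.56 without the 2 farthest samples. let-7c, which shares the chromosome 11 cluster and has a further gene on chromosome 7, differed by -0.23 (SE 0.08, limma adjusted p = 0.0832), with all GF samples below all controls. All DM samples of let-7c also lay below all controls (DM minus control -0.16, limma adjusted p = 0.546). Of all tested miRNAs 19.4% did so in GF and 4.85% in DM. In GF minus control let-7a differed by -0.06 (SE 0.08) and let-7e, of the chromosome 1 cluster, by 0.12 (SE 0.09), and both overlapped between groups. The miR-99b*, miR-125b-3p, miR-125b* and miR-351 probes lay at the floor of 4.31 on every array, and miR-125a-3p was well above background on 2 arrays of each group.

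The let-7 miRNAs were set against their cluster neighbours over the same 10 samples. let-7c had an r of 0.64 with miR-99a (permutation p = 0.0511, adjusted p = 0.106; rho 0.44, permutation p = 0.203, adjusted p = 0.347) and of 0.63 with miR-125b-5p (permutation p = 0.0528, adjusted p = 0.106; rho 0.56, permutation p = 0.0963, adjusted p = 0.193). let-7e had an r of 0.64 with miR-99b (permutation p = 0.0441, adjusted p = 0.106; rho 0.76, permutation p = 0.0147, adjusted p = 0.0767) and of 0.30 with miR-125a-5p (permutation p = 0.41, adjusted p = 0.656; rho 0.43, permutation p = 0.217, adjusted p = 0.347). let-7a had an r of 0.61 with miR-100 (permutation p = 0.0628, adjusted p = 0.112; rho 0.58, permutation p = 0.0887, adjusted p = 0.193). Without the 2 farthest samples the 5 values of r ran from 0.52 to 0.80, within slide 1 from 0.15 to 0.66, within slide 2 from 0.30 to 0.73, and with group means removed from 0.24 to 0.60. With group means removed let-7c had an r of 0.34 with miR-99a and of 0.24 with miR-125b-5p, and within slide 1 let-7e had an r of 0.27 with miR-99b. About 12.7% to 39.4% of all pairs reached these values, and let-7 members have near-identical sequences and several gene copies.

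In the authors' deposited table of miRNAs past their own threshold, which holds 35 miRNAs, 0 of the 5 members appear, and of the related list let-7e does, with a p-value of 0.0191 in the authors' deposited table. All 5 members are in the authors' deposited table of 149 filtered miRNAs.

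Markers of other cell types were summed per sample beside the members, and 3 of the lists had GF samples outside the control range altogether in the direction of lower signal. The sums weight bright probes most, and that of the endothelial pair mostly follows miR-126 (14.18 to 14.49 in control samples). The summed signal of the endothelial pair miR-126 and miR-126* (log2) ran from 14.23 to 14.54 in control, 14.09 to 14.34 in DM and 13.93 to 14.05 in GF samples. That of 2 red cell miRNAs ran from 12.59 to 12.84, 11.75 to 12.59 and 12.17 to 12.54, and that of 2 neural miRNAs, of which miR-124 lay at the floor, from 5.66 to 5.80, 5.40 to 5.87 and 5.31 to 5.52. That of 6 epithelial miRNAs, of which miR-203 and miR-205 lay at the floor throughout, was higher in every GF sample, at 6.99 to 7.69, 7.51 to 8.92 and 8.65 to 9.02. Of these, miR-141 (log2 difference 2.41 in GF minus control) and miR-200c (2.58) had every GF sample above every control sample. miR-200a (0.07) and miR-200b (0.02) lay near the floor and overlapped between GF and control samples. The neural sum rests on miR-9 alone, which also lay near the floor, at 4.95 to 5.16 in control and 4.31 to 4.71 in GF samples. Its lower value is therefore that of a single dim miRNA.

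The sums of the muscle, smooth muscle, fibroblast-rich and leukocyte lists overlapped between GF and control samples, while some of their miRNAs did not. The list names are labels, and whether miR-22 or the others came from those cells in these hearts was not tested. Every GF sample lay below every control sample for 3 of the 5 fibroblast-rich miRNAs (miR-199a-3p, miR-199a-5p and miR-22), for 2 of the 4 leukocyte miRNAs (miR-142-3p and miR-142-5p), for 2 of the 6 muscle miRNAs (miR-133a and miR-208) and for 0 of the 2 smooth muscle miRNAs, where 19.4% of all tested miRNAs did so. miR-208, a miRNA of heart muscle, had a log2 signal of 11.10 to 11.85 in control and 10.10 to 10.49 in GF samples. miR-199a-3p ran from 11.80 to 11.99 in control and from 11.27 to 11.71 in GF samples, and miR-142-3p from 10.93 to 11.27 and from 10.39 to 10.77. Other miRNAs of these lists went the other way in GF minus control, miR-21 by 0.32 (limma adjusted p = 0.151) and miR-223 by 0.51 (adjusted p = 0.0611). The remaining fibroblast-rich miRNA, miR-214, differed by -0.57 (limma adjusted p = 0.0887) and the remaining leukocyte miRNA, miR-150, by -0.01 (adjusted p = 0.966). The 5 fibroblast-rich miRNAs summed to 15.85 to 16.24 in control, 15.94 to 16.15 in DM and 15.70 to 15.91 in GF samples. The 2 smooth muscle miRNAs summed to 13.51 to 14.21, 13.85 to 14.01 and 13.79 to 14.15 in the same order. The 6 muscle miRNAs summed to 16.92 to 17.38, 16.95 to 17.05 and 16.81 to 17.02, and the 4 leukocyte miRNAs to 12.10 to 12.18, 11.91 to 12.24 and 11.87 to 12.10. In control samples miR-22 alone read 15.46 to 15.91 and miR-143 alone 13.51 to 14.20. The fibroblast-rich and smooth muscle sums therefore mostly follow these brightest miRNAs. All members of the endothelial, smooth muscle, fibroblast-rich, red cell and leukocyte lists were above background on all arrays. The part of these shifts in the lower values of miR-100, miR-125b-5p and miR-99a was not tested.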

How the data were processed

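Scanner output came from Agilent Feature Extraction 9.5.3.1, per the file headers and the submitters' processing notes. In the deposited array files the intensity of each spot is net of background, with no scaling between arrays; the authors' deposited tables hold log2 values of 149 filtered miRNAs and, per the file headers, p-values of a Welch 1-way ANOVA of the 3 groups with no correction for multiple tests. The deposited log2 values equal the log2 total gene signal minus the control mean, with no scaling (largest difference 2.05e-06).

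Here spots marked as outliers were dropped (153 to 294 per array) and the other spots of a probe were averaged. The probe signals were then scaled to the 75th percentile over 254 probes above background on all arrays and floored at 19.8 (4.31 in log2). Each miRNA was represented by its brightest probe. A miRNA was tested when well above background on at least 3 arrays of a group (165 of 350). No spot was saturated (0). Differences were fitted with limma 3.58.1 (R 4.3.3) over 10 distinct samples, two-sided, with Benjamini-Hochberg adjustment and a threshold of 0.05, after a test on simulated data. Ratios and brightness had exact permutation tests, and correlations permutation tests (scipy 1.17.1). All members, both probes of each, a list of related miRNAs and the 3 nearest patterns were named whatever their values. The members and lists were chosen with earlier results of these data known. Alternatives covered scaling, background, summary, filter, close arrays, blocks and left-out samples. Same-numbered control and GF arrays deviated together (4 of 4 correlations over 0.1, from 0.15 to 0.47; close arrays make these not independent), while those of DM did so in 2 of 5 pairs with control and 0 of 4 with GF; the labels do not say what the numbers stand for. The normexp correction used median spot signals, in place of mean signals.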

Additional observations from a re-analysis of the deposited data

Results flagged for a closer look

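Among the 5 members in the 4 distinct control samples, control replicate 5 lay far above the other 3 for miR-99a, at a log2 signal of 12.01 against 11.85 to 11.87, and for miR-125b-5p, at 13.67 against 13.54 to 13.55. The gap to the nearest sample exceeded Dixon's limit at the 95% level in both. Chance alone marks about 1 in 20 such groups, the 2 miRNAs vary together, and groups of 3 samples were not examined. Without control replicate 5 the log2 difference of GF minus control was -0.12 for miR-99a and -0.22 for miR-125b-5p, against -0.16 and -0.25 with it.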

How the results depend on the processing

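The number of calls among all tested miRNAs in GF minus control was 13. It was 21 with the mean of all probes, 2 with the authors' deposited log2 values, 0 with no filter on dim probes (46 unadjusted), 60 with 15 arrays as separate samples, 57 with slide as a block, 0 with further close arrays merged to 8 samples (35 unadjusted) and 0 within slide 1 and 0 within slide 2, all in limma; leaving out each distinct sample gave 0 to 28. In DM minus control 0 became 3 with 15 arrays, 3 with slide as a block and 2 within slide 2, and 0 to 2 with a sample left out. In GF minus DM 0 became 1 with no scaling, 1 with normexp, 6 with 15 arrays, 5 with slide as a block, and 0 to 6 with a sample left out.

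Deviations of same-numbered arrays correlated above 0.1 in 4 of 4 control and GF pairs, 2 of 5 control and DM pairs and 0 of 4 DM and GF pairs. With the replicate number as a block on 15 arrays, 50, 4 and 1 miRNAs passed in GF minus control, DM minus control and GF minus DM. Then miR-100 passed in GF minus control (-0.35, limma adjusted p = 0.0408), miR-125a-5p was at 0.037 there and miR-99b at 0.0095 in GF minus DM; the block changed no other call of a member.

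Of the members' 420 alternative values 363 kept direction and side of the threshold, 10 crossed to a pass and 47 changed sign; none of the 47 was past the threshold. In GF minus control, no scaling gave 0.16 for miR-99a, 0.072 for miR-125b-5p and 0.31 for miR-125a-5p, and the authors' deposited values gave 0.14, 0.060 and 0.29. miR-125a-5p was 0.12 when the 75th percentile was taken over all probes, 0.14 after quantile normalization, 0.027 when hur control spots set the scale, 0.011 with 15 arrays, 0.011 with slide as a block and 0.085 within slide 1. miR-99b was -0.037 with normexp, -0.042 with its other probe and -0.0029 within slide 2. With 15 arrays miR-125b-5p passed (-0.24, limma adjusted p = 0.048). In DM minus control, scaling to the hur spots gave 0.10 for miR-99a and 0.088 for miR-125b-5p, which was 0.010 within slide 1. No scaling gave -0.036 for miR-99b and -0.069 for miR-125a-5p, the authors' deposited values -0.048 and -0.078, and miR-125a-5p was -0.00040 with quantile normalization and -0.00086 with total gene signal. In GF minus DM, no scaling gave 0.34 for miR-99a, 0.26 for miR-100, 0.27 for miR-125b-5p, 0.41 for miR-99b and 0.38 for miR-125a-5p, and the authors' deposited values 0.32, 0.24, 0.26, 0.39 and 0.37. The 75th percentile over all probes gave 0.020 for miR-99a, 0.081 for miR-99b and 0.052 for miR-125a-5p, quantile normalization 0.013, 0.024 and 0.14, and slide 1 gave 0.037 for miR-99b. With a sample left out, miR-125a-5p ran from -0.059 to 0.027 in GF minus control, miR-125b-5p from -0.13 to 0.011 in DM minus control and miR-99b from -0.084 to 0.026 in GF minus DM. No scaling leaves the array brightness in the values; the causes of the other shifts were not tested.

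Of the ratios' 252 alternative values 240 kept direction and side and 12 changed sign. Over the distinct samples no exact permutation test of a ratio could pass 0.05, so keeping its side of the threshold says nothing about stability there. With normexp, miR-99b over miR-125a-5p was -0.028 in GF minus control and -0.12 in GF minus DM, and miR-99b over miR-99a -0.12 in GF minus DM; with the mean of all probes, miR-100 over miR-125b-5p was 0.013 in GF minus DM. With a sample left out, miR-99b over miR-125a-5p ran from -0.00017 to 0.076 and miR-99a over miR-125b-5p from -0.022 to 0.049 in DM minus control. In GF minus DM, miR-99b over miR-125a-5p ran from -0.0025 to 0.057, miR-100 over miR-125b-5p from -0.041 to 0.032, miR-99b over miR-99a from -0.056 to 0.14 and miR-125a-5p over miR-125b-5p from -0.015 to 0.21. All members were well above background on all arrays. The number of samples limits the precision.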
